A study of Homo sapiens with 35 samples.

Results

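Messenger RNA of the components and regulators of mTOR complex 1 (mTORC1) was followed in the human multiple myeloma line RPMI-8226 as it recovered from a pulse of the proteasome inhibitor carfilzomib. The group held 10 of the 19665 protein-coding entries of the table, namely DEPTOR, SESN1, SESN3, TSC1, TSC2, RHEB, MTOR, RPTOR, RICTOR and EIF4EBP1, chosen by symbol, and all 10 had counts. Cells received 750 nM carfilzomib for 1 h, were washed and were then grown without the drug. Total RNA was sequenced on days 0, 1, 2, 4, 6, 8 and 10, from 5 subcultures at each time, giving 35 libraries. Carfilzomib is entered in the labels of day 0 as well, whereas the study's methods place the day 0 collection before the drug, and day 0 was taken as untreated. All groups were the same cell line in the same medium, with no drug-free culture carried along to the later days, so time in culture and recovery from the drug cannot be told apart. On day 0, cells were set to a fixed density in fresh medium and harvested before the drug. From day 2 on, harvests were made right before fresh medium was due, and density was set again on days 6 and 8. Time since feeding thus differed between day 0, day 1 and the later days, and cell density was not held constant. Neither can be told apart from the day, also in the comparisons with day 0. The subcultures were split from a single expanded culture, and p-values therefore measure the spread among subcultures of 1 culture.

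mTORC1 is a protein kinase complex on the lysosome that promotes translation and ribosome production and restrains autophagy when growth factors, amino acids and energy are plentiful. MTOR is the kinase, RPTOR recruits the substrates of mTORC1, and RICTOR takes its place in the second complex, mTORC2. The GTPase RHEB switches the kinase on, and TSC1 and TSC2 form the complex that keeps RHEB inactive. The sestrins SESN1 and SESN3 hold mTORC1 back when the cell is stressed. DEPTOR binds MTOR and restrains both complexes. EIF4EBP1 encodes the translation repressor 4E-BP1, a substrate that mTORC1 phosphorylates and thereby silences. DEPTOR is known for high levels in myelomas that express MAF, and plasma cells, which secrete large amounts of protein, depend on the balance between protein synthesis and degradation.

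Libraries held 6519392 to 10962890 counts (median 7643975), and the 10 members together had 3457 to 6427 counts per library. Levels are given as CPM, counts relative to a common library size after scaling by the TMM factors of edgeR, which lay between 0.9285 and 1.078. CPM of different genes are not compared, since they are not divided by transcript length. All 9 plasma cell markers examined were expressed in every library, among them MAF with 1290 to 2360 CPM, whereas the summed CPM of the mature B cell, T cell, myeloid and erythroid markers, 4 of each lineage with a count in some library, stayed at or below 17.5. TRAC, a further T cell marker, was not analysed here, and FCGR3A, a further myeloid marker, was at 0 in all libraries. The stromal or epithelial markers were not low, with a sum of 302 to 471 CPM that came mainly from KRT18 (220 to 381 CPM) and EPCAM (44 to 95.7 CPM), while COL1A2 was at 0 and COL1A1 at or below 1.43 CPM. Their sum was 311 to 380 CPM on day 0 and 403 to 431 CPM on day 1. The sum of the plasma cell markers was 3650 to 3840 CPM on day 0 and 2680 to 2810 CPM on day 1. The part of either sum in the changes described here was not tested. In these bulk samples, fewer cells carrying a transcript and less of it per cell cannot be told apart.

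On day 1, 9 of the 10 members differed from day 0, and they moved in both directions. MTOR, RPTOR, RHEB, TSC1 and TSC2 were higher, and DEPTOR, SESN1, RICTOR and EIF4EBP1 were lower (edgeR quasi-likelihood test, Benjamini–Hochberg adjusted p at or below 0.05 over 17999 entries). Across all entries tested, 25.4% were higher and 27.3% lower on that day. Day 2 had 3 members higher and 4 lower (23.2% and 24.4% of all entries), and day 4 had 3 of each (19% and 20.1%). The later days had 1 higher and 4 lower (day 6, 17.5% and 17%), 1 and 3 (day 8, 18.2% and 18.6%), and 2 and 3 (day 10, 16.1% and 15.8%). With 10 members, each member shifts these shares by a large step, and the counts serve only as a description. The shares of all entries also include entries with few counts, as 12301 of the 17999 passed a filter on low counts. The median log2 fold change of the members was −0.17 on day 1 and −0.03 on day 10, beside −0.06 and −0.02 over all entries. Most changes were modest. A fold change above 2 was reached by 2 members on day 1, DEPTOR and SESN1 (20.4% of all entries), by SESN1 alone on day 2 (15.3%), by EIF4EBP1 alone on days 4 (9.41%) and 8 (8.18%), and by no member on days 6 (6.71%) and 10 (5.93%).

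**Figure D1:**
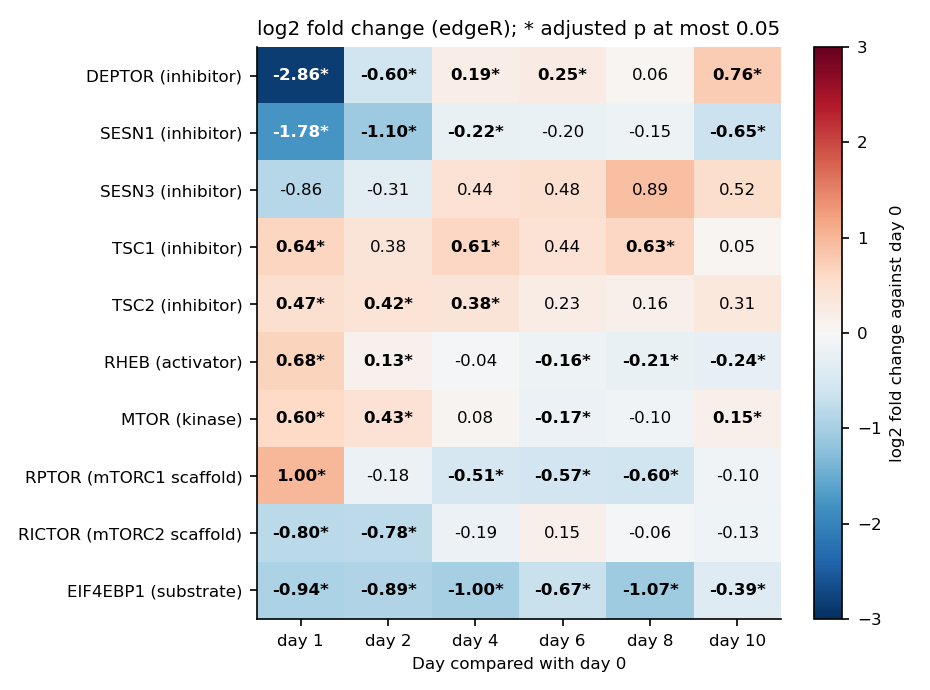
log2 fold change against day 0 of each member (rows) on each later day (columns), from edgeR over 35 libraries. Blue cells are lower and red cells higher than day 0, and an asterisk marks an adjusted p of at most 0.05. DEPTOR goes from −2.86 on day 1 to 0.76 on day 10, and EIF4EBP1 is lower on all 6 days.

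DEPTOR, the inhibitor that binds the kinase itself, had the widest range of the members. The gene lies on chromosome 8 (119873717 to 120050918, GRCh38). Its 5 day 0 libraries held 144, 147, 142, 157 and 154 CPM, and those of day 1 held 19.9, 22.0, 19.1, 22.0 and 19.8 CPM. On day 10 they held 249, 272, 238, 249 and 251 CPM. Every day 1 library was thus far below, and every day 10 library above, all libraries of every other day. DEPTOR fell by 2.86 on the log2 scale on day 1 (standard error 0.061, edgeR adjusted p = 5.17e-33), from 149 ± 6.55 to 20.6 ± 1.35 CPM (SD, n = 5). It was still below day 0 on day 2, at 98.4 ± 3.77 CPM (log2 fold change −0.60), passed it on day 4 at 170 ± 5.25 CPM (0.19, edgeR adjusted p = 0.00193) and stood at 178 ± 12.2 CPM on day 6 (0.25). On day 8 the level was 155 ± 8.58 CPM, within the day 0 spread (0.06, edgeR adjusted p = 0.400). On day 10 it rose to 251.9 ± 12.3 CPM (0.76, standard error 0.049, edgeR adjusted p = 3.47e-16). The highest daily mean was 12.3 times the lowest. In the order of the daily means, days 1, 2 and 0 were separated from each other without overlap, days 0 and 8 overlapped, days 8 and 4 did not, days 4 and 6 overlapped, and day 10 stood clear of day 6. Replicate 5 of day 6, at 199 CPM against 169 to 175 CPM in the other libraries of that day, stood apart from them. The fall up to day 8 (−0.20, edgeR adjusted p = 0.0165) did not pass the threshold without it (−0.14) or without replicate 1 of day 8 (−0.15).

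**Figure D2:**
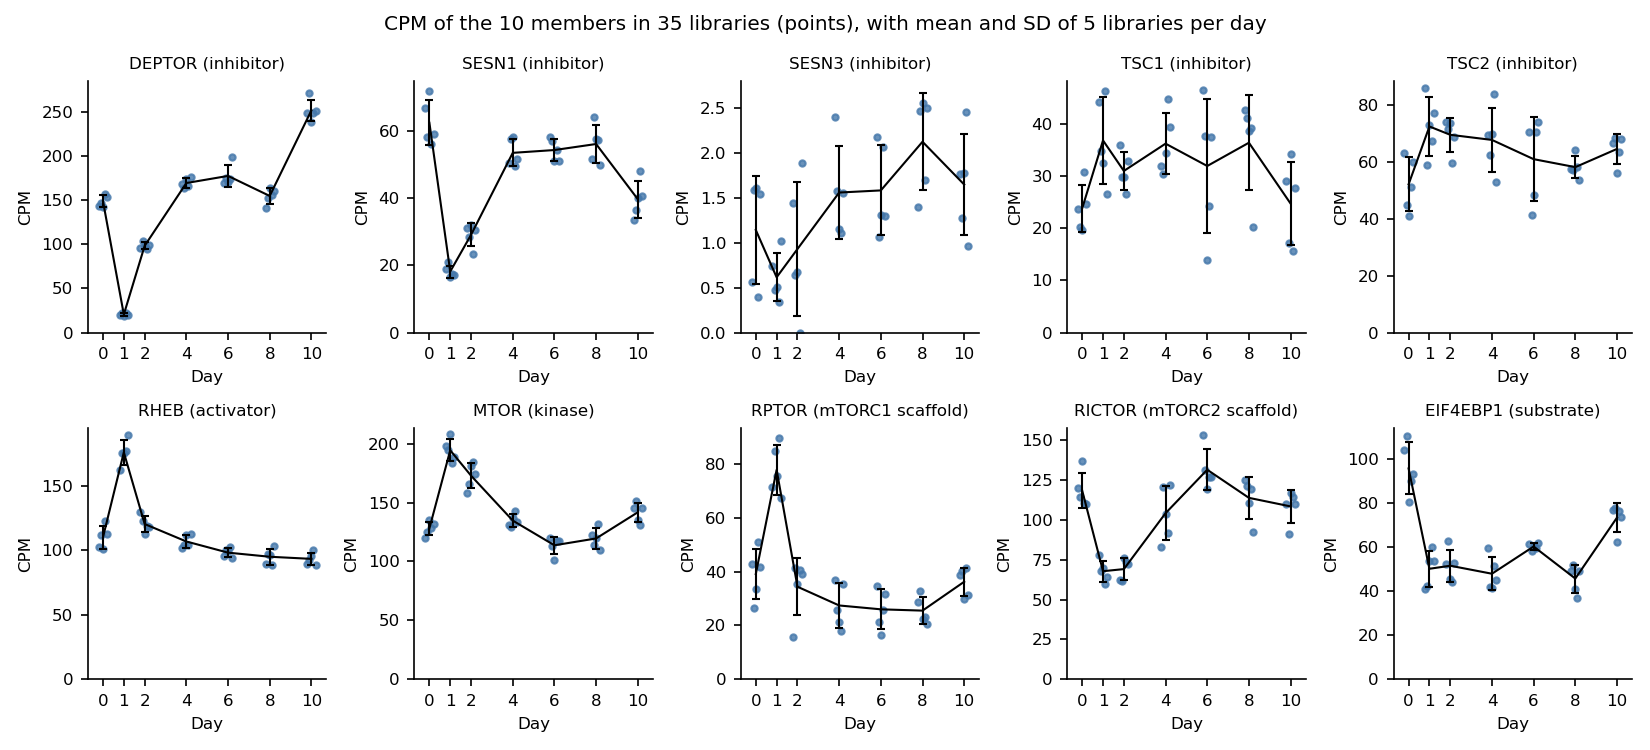
CPM of the 10 members by day. Points are single libraries, 5 per day, and the line joins the daily means with SD bars. Each panel starts at 0 and has its own scale. DEPTOR, SESN1 and RICTOR dip on day 1 while RHEB, MTOR and RPTOR peak, and EIF4EBP1 stays below day 0.

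SESN1, a stress-induced inhibitor that acts through the GATOR complexes, fell with DEPTOR but did not overshoot. The gene lies on chromosome 6 (108984309 to 109094846, minus strand). Day 0 libraries held 66.8, 58.2, 71.9, 55.9 and 59.1 CPM, day 1 libraries 18.8, 20.9, 16.4, 17.5 and 17.1 CPM, and day 10 libraries 33.4, 36.4, 39.9, 48.0 and 40.6 CPM. Neither later group overlapped with day 0. Its log2 fold change was −1.78 on day 1 (standard error 0.096, edgeR adjusted p = 1.37e-19). It was −1.10 the day after, and −0.65 at the end of the series (standard error 0.088, edgeR adjusted p = 8.01e-08). Between these times SESN1 came close to its starting level, at 53.4 ± 4.04, 54.3 ± 3.29 and 56.1 ± 5.59 CPM (days 4, 6 and 8), against 62.4 ± 6.69 CPM before the drug. The day 4 difference (−0.22, edgeR adjusted p = 0.0331) was lost without replicate 1, 3 or 5 of day 0 or replicate 1, 4 or 5 of day 4 (−0.22 to −0.17) and without scaling factors (−0.11). The day 6 difference (−0.20, edgeR adjusted p = 0.0618) passed the threshold with a filter on low counts, RLE factors or DESeq2 (−0.21 in each), without replicate 4 of day 0 (−0.23), and in the symbol total (−0.28). The SESN1 totals of days 4 and 8 were also below day 0 (−0.30 and −0.23, edgeR adjusted p = 0.00115 and 0.0135). SESN1 thus fell a second time, from day 8 to day 10 (−0.50, edgeR adjusted p = 5.62e-05), over the same interval in which DEPTOR rose (0.70, edgeR adjusted p = 9.46e-14). SESN3, the related sestrin on chromosome 11 (95165513 to 95232541), had 0 to 20 counts per library and daily means of 0.615 to 2.12 CPM. No difference of SESN3 passed the threshold, the closest being day 8 (0.89, standard error 0.43, edgeR adjusted p = 0.105). The log2 ratio of SESN1 to SESN3 counts within a library was 5.99 ± 0.94, 4.98 ± 0.64 and 4.65 ± 0.48 (days 0, 1 and 10). The changes of −1.01 and −1.34 did not pass after adjustment over the 6 ratio tests (exact permutation test, two-sided, p = 0.103 and 0.0238, q = 0.206 and 0.0714). From symbol totals the day 10 change was nearly the same, −1.35, and passed (exact permutation test, q = 0.0357). The 6 tests are adjusted together, and from totals both TSC1 to TSC2 tests passed as well, which lowers this q. The pass is therefore not a sign of a firmer change in the SESN1 to SESN3 ratio.

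To show the DNA upstream of members that moved in opposite directions on day 1, windows of 250 bases upstream of RefSeq transcript starts (GRCh38.p14) were read for SESN1, which fell, and MTOR, which rose. Such windows were held for 8 members. The letters of binding motifs of stress-related factors were searched on both strands: CACGTG (the E-box of TFEB and MYC, in 6.34% of 35116 windows of all genes), TGATGNAA (the amino acid response element of ATF4, 3.14%), TGACNNNGC (the antioxidant response element of NRF2, 10.9%), GAANNTTC (an inverted repeat of the heat shock element, 5.78%) and GTAAACA (the forkhead element, 2.98%). Matches were found for 3 members, SESN1, MTOR and TSC2, and none for the other 5. The share of all windows with a match to any of the motifs was not computed. The number of members with a match is therefore not read as an excess. Capitals mark the match in each sequence. For SESN1, 3 windows were held, and those at the start of the gene (chr6:109094847-109095096) and at chr6:109008989-109009238 had no match. The SESN1 window printed lies inside the gene (chr6:109009553-109009802, minus strand), before an internal transcript start, and 3 of its bases lie in annotated SESN1 exons. Its match is to TGACNNNGC on the opposite strand and begins 159 bases upstream of that start. The MTOR window (chr1:11262552-11262801, minus strand) ends at the start of the gene, 5 of its bases lie in annotated MTOR exons, and its GAANNTTC match begins 97 bases upstream.
SESN1: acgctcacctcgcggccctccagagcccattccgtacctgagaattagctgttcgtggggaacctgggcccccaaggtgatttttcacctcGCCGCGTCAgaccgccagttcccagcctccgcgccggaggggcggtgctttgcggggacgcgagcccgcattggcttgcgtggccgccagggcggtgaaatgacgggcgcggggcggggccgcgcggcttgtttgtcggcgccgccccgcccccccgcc
MTOR: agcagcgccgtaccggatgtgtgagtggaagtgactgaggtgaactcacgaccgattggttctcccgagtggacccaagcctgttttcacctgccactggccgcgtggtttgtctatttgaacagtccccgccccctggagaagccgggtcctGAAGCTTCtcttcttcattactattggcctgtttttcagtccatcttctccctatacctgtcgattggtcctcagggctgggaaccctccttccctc
Upstream of TSC2, 3 motifs overlap within 19 bases (chr16:2047864-2047882, plus strand), with CACGTG beginning 114 bases, TGATGNAA 110 bases and TGACNNNGC on the opposite strand 121 bases before the start, as shown here in full. Of the 250 bases of that window, 150 lie in annotated exons of NTHL1 and TSC2, and a second TSC2 window (chr16:2047952-2048201) had no match.
TSC2: GCCCCGTCACGTGATGCAA
These matches describe letters only, and no binding was measured.

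RHEB, the GTPase that activates the kinase, moved opposite to DEPTOR. The gene lies on chromosome 7 (151466012 to 151520120, minus strand). Day 0 libraries held 103, 112, 100.8, 123 and 112 CPM and day 1 libraries 163, 175, 176, 177 and 190 CPM, with no overlap. Day 10 libraries, at 89.2, 92.9, 95.3, 100.6 and 89.0 CPM, all lay below day 0. The log2 fold change was 0.68 on day 1 (standard error 0.055, edgeR adjusted p = 3.42e-14) and −0.24 on day 10 (standard error 0.056, edgeR adjusted p = 0.000855). The largest step down was from day 1 to day 2 (−0.55, edgeR adjusted p = 1.72e-11), and the daily means after day 1 were 120.5 ± 6.39, 107 ± 5.22, 98.3 ± 3.49 and 95.1 ± 6.16 CPM (days 2, 4, 6 and 8). On day 8 RHEB was below day 0 by −0.21 (edgeR adjusted p = 0.00211). The small differences in between were less firm. The day 2 rise (0.13, edgeR adjusted p = 0.0475) did not pass with a filter on low counts (0.09), RLE factors (0.11) or DESeq2 (0.11), nor without any 1 of 8 of the 10 libraries of days 0 and 2, the exceptions being replicate 4 of day 0 and replicate 3 of day 2. The day 6 fall (−0.16, edgeR adjusted p = 0.0185) did not pass without scaling factors (−0.11), without replicate 4 of day 0 (−0.12) or without replicate 5 of day 6 (−0.14).

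TSC1 and TSC2, which together keep RHEB inactive, were both higher on day 1 in their protein-coding entries, but TSC1 turned direction when all entries of the symbol were summed. The table splits each symbol by transcript biotype, and the protein-coding entry held only 28.6% ± 7.22 of the TSC1 counts on day 0 (chromosome 9, 132891348 to 132946874), against 54.6% ± 12.1 on day 1 (SD, n = 5). The TSC1 coding entry held 23.8, 20.3, 19.7, 30.9 and 24.6 CPM on day 0 and 44.3, 34.8, 32.5, 46.3 and 26.5 CPM on day 1, so the ranges overlapped. Its log2 fold change was 0.64 on day 1 (standard error 0.22, edgeR adjusted p = 0.0117) and 0.61 and 0.63 on days 4 and 8, but at the end of the series it was 0.05 (edgeR adjusted p = 0.935). The TSC1 total over all biotypes went the other way, from 72.9 ± 5.43 CPM on day 0 to 61.3 ± 5.98 on day 1 (−0.25, edgeR adjusted p = 0.00357) and 52.7 ± 3.95 on day 2 (−0.47, edgeR adjusted p = 3.45e-07). For days 4 and 8 the totals gave −0.27 and −0.10 (edgeR adjusted p = 0.00228 and 0.323). The counts are estimates that divide reads among overlapping isoforms, and how well that division was determined for TSC1 was not tested. Without replicate 3 of day 0 or replicate 4 of day 4 the day 4 rise of the coding entry did not pass (0.55 and 0.52). Without replicate 3 of day 6 the coding entry passed on day 6 too (0.62, from 0.44), and replicate 5 of day 8, with 20.3 CPM against 38.6 to 42.8, stood apart from its group.

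TSC2 lies on chromosome 16 (2047967 to 2089491, plus strand). Its coding entry held 63.3, 44.8, 41.1, 51.3 and 60.1 CPM on day 0 and 86.0, 58.9, 72.8, 67.2 and 77.3 CPM on day 1, again with overlapping ranges. The log2 fold change was 0.47 on day 1 (standard error 0.13, edgeR adjusted p = 0.00136), 0.42 on day 2 (edgeR adjusted p = 0.00486) and 0.38 on day 4 (edgeR adjusted p = 0.0142). Here the total rose as well on day 1, though by less, from 90.6 ± 5.14 to 106 ± 8.82 CPM (0.23, edgeR adjusted p = 0.00112), while the totals of days 2 and 4 did not pass (0.04 and 0.13). The share of the coding entry was 49.8% ± 9.79 on day 0 and 61.7% ± 8.08 on day 1. The coding value of day 4 was lost without replicate 3 of day 0 or replicate 4 of day 4 (0.30 and 0.29), and day 6 passed without replicate 2 of that day (0.34, from 0.23). On day 10 TSC2 was just short of the threshold (0.31, edgeR adjusted p = 0.0596) and passed with a filter on low counts, without scaling factors, with only the libraries of the 2 days, in the symbol total, and without replicate 1 or 5 of day 0 or replicate 3 of day 10 (0.16 to 0.40 over these settings). The log2 ratio of TSC1 to TSC2 coding counts was −1.13 ± 0.26 on day 0 and −0.99 ± 0.39 on day 1 (difference 0.14, exact permutation test, two-sided, p = 0.532, q = 0.638). From the totals the difference was −0.48 (exact permutation test, q = 0.0238). On day 10 the coding ratio had changed by −0.32 (exact permutation test, p = 0.270, q = 0.405) and the ratio of totals by −0.24 (exact permutation test, q = 0.0317).

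**Figure D3:**
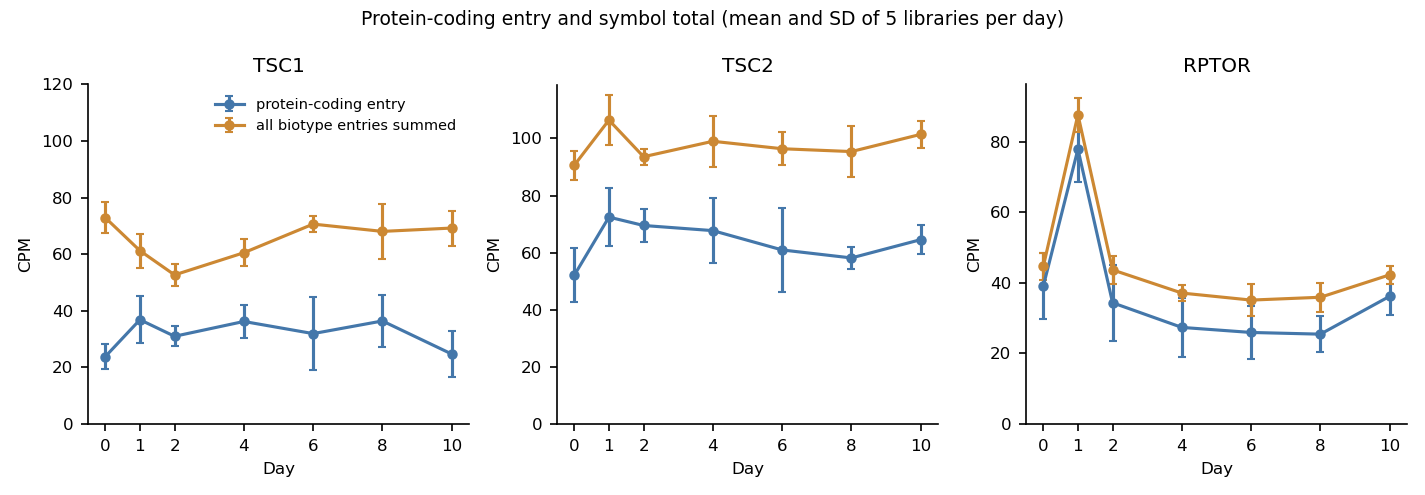
CPM of the protein-coding entry (blue) and of all biotype entries of the symbol summed (orange) for TSC1, TSC2 and RPTOR, as mean with SD of 5 libraries per day. Both series are scaled to their own library sizes. For TSC1 the coding entry is higher on day 1 than on day 0 while the total is lower, and for RPTOR both peak on day 1.

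MTOR, the kinase of both complexes, rose on day 1 and stayed raised on day 2. The gene lies on chromosome 1 (11106535 to 11262556, minus strand), and its upstream window is shown above. Libraries held 120, 125, 135, 128 and 132 CPM on day 0, 198, 194.5, 208, 184 and 189 CPM on day 1, and 159, 166, 181, 185 and 174 CPM on day 2. All libraries of days 1 and 2 lay above those of day 0. The log2 fold change was 0.60 on day 1 (standard error 0.055, edgeR adjusted p = 1.12e-12) and 0.43 on day 2 (edgeR adjusted p = 6.84e-09). MTOR was back at 135 ± 5.29 CPM on day 4 (0.08, edgeR adjusted p = 0.313), although without scaling factors this difference passed (0.19). It was lowest on day 6 at 114 ± 7.42 CPM (−0.17, edgeR adjusted p = 0.0154) and stood on day 10 at 142 ± 8.22 CPM (0.15, edgeR adjusted p = 0.0356). The day 6 value did not pass without scaling factors (−0.12), in the symbol total (−0.13), or without replicate 3 of day 0 (−0.15) or of day 6 (−0.13). The day 10 value did not pass without replicate 1 of day 0 (0.14) or replicate 2 or 5 of day 10 (0.12 and 0.15).

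RPTOR and RICTOR, the scaffolds that define mTORC1 and mTORC2, moved in opposite directions on day 1. RPTOR lies on chromosome 17 (80544819 to 80966371, plus strand), and its libraries held 42.8, 26.5, 33.6, 50.9 and 41.6 CPM on day 0 and 71.6, 85.0, 75.5, 89.7 and 67.5 CPM on day 1. RICTOR lies on chromosome 5 (38937920 to 39074402, minus strand), and its libraries held 120, 114.6, 137, 111 and 110 CPM on day 0 and 77.8, 67.7, 69.8, 60.03 and 63.9 CPM on day 1. Neither gene's day 1 libraries overlapped with day 0. The log2 fold change of RPTOR was 1.00 (SE 0.19, edgeR adjusted p = 1.33e-05) and that of RICTOR −0.80 (SE 0.095, edgeR adjusted p = 1.20e-09). The log2 ratio of RPTOR to RICTOR counts within a library, which no scaling factor touches, was −1.49, −2.11, −2.03, −1.12 and −1.41 on day 0 and −0.12, 0.33, 0.11, 0.58 and 0.08 on day 1. All 5 day 1 libraries lay above all day 0 libraries, with a difference of 1.83 (standard error 0.22, exact permutation test, two-sided, p = 0.00794, the smallest this design allows, q = 0.0476). With medians in place of means the difference was 1.60 and did not pass (exact permutation test, q = 0.143). On day 10 the ratio had changed by 0.04 (exact permutation test, p = 0.873).

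After day 1 the scaffolds separated in time. RICTOR was still low on day 2, at 69.1 ± 6.73 CPM (−0.78, edgeR adjusted p = 2.18e-09), reached 104 ± 17.1 CPM on day 4 and 132 ± 12.9 CPM on day 6, and did not differ past the threshold from day 0 on any day from day 4. RPTOR dropped at once from day 1 to day 2 (−1.18, edgeR adjusted p = 1.02e-06), to 34.4 ± 10.7 CPM. Replicate 1 of day 2 held 15.6 CPM, and the other 4 libraries of that day held 35.4 to 41.2. RPTOR was then below day 0 on day 4 (27.4 ± 8.44 CPM, −0.51, edgeR adjusted p = 0.0395), day 6 (26.0 ± 7.46, −0.57, edgeR adjusted p = 0.0225) and day 8 (25.5 ± 5.10, −0.60, edgeR adjusted p = 0.0161), and on day 10 it was at 36.2 ± 5.30 CPM (−0.10, edgeR adjusted p = 0.765). The ranges of days 4, 6 and 8 overlapped with that of day 0. These RPTOR calls depended on single libraries. Day 4 did not pass without replicate 1, 4 or 5 of day 0 or replicate 2, 3 or 4 of day 4 (−0.47 to −0.38), nor without scaling factors (−0.40). Day 6 did not pass without replicate 1 or 4 of day 0 or replicate 2 or 3 of day 6 (−0.53 to −0.45), and day 8 did not pass without replicate 4 of day 0 or replicate 5 of day 8 (−0.48 and −0.52). The RPTOR total over all biotypes varied less between libraries and gave the same directions with smaller steps, at 0.98, −0.27, −0.34 and −0.30 (days 1, 4, 6 and 8, edgeR adjusted p = 2.35e-17, 0.00441, 0.000334 and 0.00125).

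**Figure D4:**
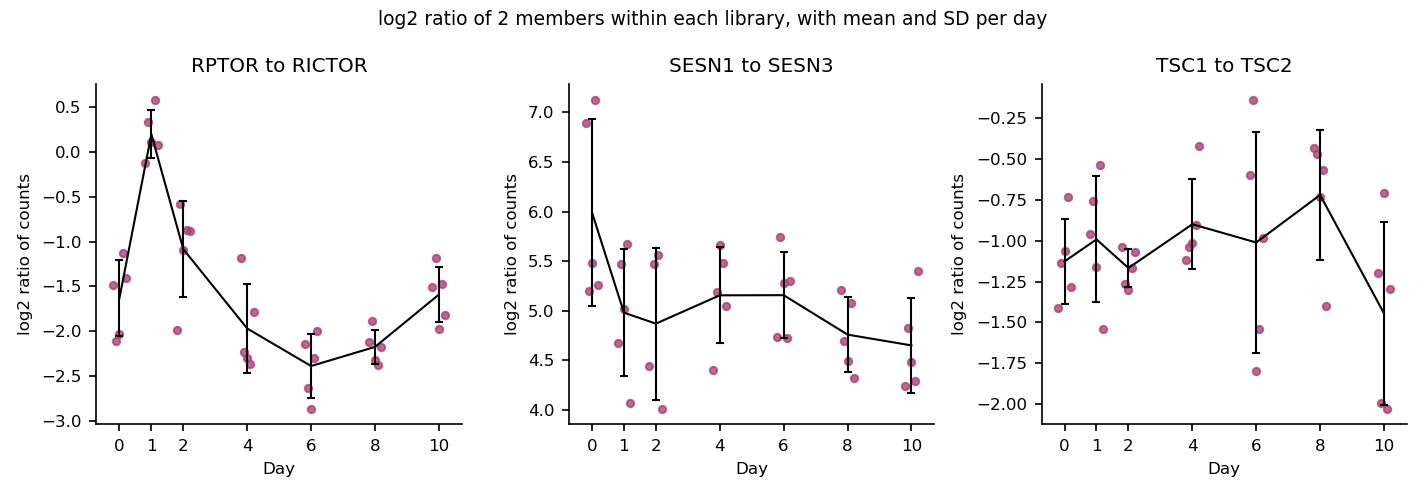
log2 ratio of the counts of 2 members within each library, by day. Points are libraries and the line joins the daily means with SD bars. Each panel has its own scale. A day 2 library with no SESN3 count is left out of the middle panel. RPTOR to RICTOR starts at −1.63, reaches 0.20 on day 1 and ends at −1.59.

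EIF4EBP1, which encodes the translation repressor 4E-BP1, was below day 0 on all 6 later days. The gene lies on chromosome 8 (38030534 to 38060365, plus strand). Day 0 libraries held 104, 111, 80.6, 90.2 and 93.6 CPM, day 1 libraries 40.9, 42.3, 53.7, 60.2 and 53.9 CPM, and day 10 libraries 76.9, 78.0, 62.3, 76.7 and 73.6 CPM. On none of the 6 days did the libraries overlap with day 0. In time order the log2 fold changes were −0.94, −0.89, −1.003, −0.67, −1.07 and −0.39, with standard errors of 0.10 to 0.11 (edgeR adjusted p = 2.82e-10, 7.97e-10, 1.33e-10, 8.91e-07, 3.22e-11 and 0.00238). The level went from 45.8 ± 6.40 CPM to 73.5 ± 6.45 CPM over the last interval, rising by 0.69 (edgeR adjusted p = 8.31e-06). The smaller steps up to day 6 (0.33, edgeR adjusted p = 0.0320) and down to day 8 (−0.40, edgeR adjusted p = 0.0296) did not pass without any 1 of replicates 2, 3 and 5 of day 4 or 1, 3 and 5 of day 6 for the first (0.27 to 0.33), and 1, 3 and 5 of day 6 or 3 and 4 of day 8 for the second (−0.40 to −0.32).

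Between consecutive time points, more members differed over the early intervals than over most later ones, and the share of all entries took a like course. From day 1 to day 2, 5 of 10 differed, with DEPTOR and SESN1 rising and MTOR, RPTOR and RHEB falling (39.6% of all entries). From day 2 to day 4 another 5 differed, DEPTOR, SESN1 and RICTOR upward and MTOR and RHEB downward (30.6%). The RHEB fall (−0.17, edgeR adjusted p = 0.0129) did not pass without replicate 1 or 2 of day 2 or replicate 2 of day 4 (−0.14, −0.13 and −0.13). Over the next 3 intervals, ending on days 6, 8 and 10, the numbers were 3 (12.1%), 2 (2.56%) and 4 (10.1%). The last 4 were rises of DEPTOR, MTOR (0.24, edgeR adjusted p = 0.00192) and EIF4EBP1 and the second fall of SESN1. Leaving out replicate 1 of day 6 gave 1 member in the interval before it. In the interval between days 6 and 8 there was 0 without replicate 5 of day 6, and 1 without replicate 1 or 3 of day 6 or replicate 1, 3 or 4 of day 8. The number on day 4 against day 0 was 3 without replicate 3 of day 0 and 2 without replicate 4 of day 4.

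The daily means gave pairs of members with like profiles. Over the 7 daily means of log2 CPM, SESN1 and RICTOR had a Pearson correlation of 0.904 and RPTOR and RHEB one of 0.878, whereas DEPTOR and RHEB had −0.975 and MTOR and RICTOR −0.964. These points share libraries and scaling, and the values are a description. Of the other transcripts with enough counts, the most like DEPTOR were TXNDC5 (r = 0.9944), DISC1 (0.9918) and THSD7B (0.9918). TXNDC5, a protein disulfide isomerase of the endoplasmic reticulum, averaged 3250 CPM on day 0, 903 on day 1 and 4230 on day 10. The most like SESN1 were PAG1 (0.9926), NFATC1 (0.9912) and FAM227B (0.9911), and the most like RPTOR were TIRAP (0.9933), DNM2 (0.9921) and DHX36 (0.9889). All were picked as the highest among the 12301 transcripts that passed the filter on low counts. Over only 7 daily means, values this high can arise from such picking alone, and how many other transcripts came close was not examined.

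Other genes of the pathway also moved in both directions. Of 80 further genes in 7 role groups, 29 were higher (36.2%) and 27 lower (33.8%) on day 1, beside the 25.4% and 27.3% of all entries, and 13 were higher and 12 lower on day 10 (16.2% and 15%), beside 16.1% and 15.8%. The day 10 shares were thus near those of all entries. All entries include many with few counts, since 12301 of the 17999 passed a filter on low counts. Shares among those alone were not computed, and the day 1 shares are not read as an excess. The same all-entry shares of days 1 and 10 are the background for each role group below, whose counts are small and serve only as a description. Their median log2 fold change was −0.01 on day 1 and −0.02 on day 10, beside −0.06 and −0.02 over all entries. Among the 7 further subunits and assembly factors, 3 were higher and 1 lower on day 1. The lower one was MLST8, a subunit of both complexes, which fell from 39.7 ± 4.93 to 23.1 ± 3.28 CPM (−0.78, edgeR adjusted p = 1.15e-06) and did not differ past the threshold on any later day. AKT1S1, whose product PRAS40 inhibits mTORC1, rose on day 1 (0.36, edgeR adjusted p = 9.53e-06). It was below day 0 on day 2 (−0.16, edgeR adjusted p = 0.0407) and did not differ past the threshold on day 4 (−0.04).

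SESN2, the third sestrin, fell further than SESN1. It went from 248 ± 18.0 CPM to 39.1 ± 7.18 within a day (−2.66) and to 15.01 ± 2.42 on day 2 (−4.03, edgeR adjusted p = 6.58e-28), and ended at 118 ± 19.2 CPM (−1.07). It was lower on all 6 days. DDIT4, a stress-induced inhibitor that acts through the TSC complex, rose from 196 ± 12.7 CPM to 254 ± 36.1 on day 1 (0.37, edgeR adjusted p = 0.0402), did not differ on day 2 past the threshold (0.04), reached 609.5 ± 130 CPM on day 6 and was at 502 ± 30.8 on day 10 (1.36, edgeR adjusted p = 1.83e-09). Of the 6 stress-induced inhibitors and amino acid sensors, 4 were higher and 1 lower on day 1 (66.7% and 16.7%, beside 25.4% and 27.3% of all entries), and 3 and 1 on day 10 (50% and 16.7%, beside 16.1% and 15.8%).

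Among the 12 genes of GATOR1, GATOR2 and KICSTOR, which relay amino acid levels, 6 were higher and 2 lower on day 1 (50% and 16.7%, beside 25.4% and 27.3% of all entries). The group mixes complexes with different roles, and the count is not that of 1 inhibitory arm. DEPDC5, a subunit of the inhibitory GATOR1 complex, went from 4.66 ± 2.25 to 18.4 ± 4.95 CPM on day 1 (2.00, edgeR adjusted p = 5.46e-06) and was at 12.2 ± 1.86 on day 10 (1.41). The other GATOR1 genes, NPRL2 and NPRL3, did not pass on day 1 (0.59 and −0.12, edgeR adjusted p = 0.117 and 0.376). The symbol total of DEPDC5 was not analysed here. Of 13 genes of amino acid sensing at the lysosome, 5 were higher and 3 lower on day 1 (38.5% and 23.1%), and 0 and 4 on day 10 (0% and 30.8%, beside 16.1% and 15.8% of all entries). In this group FNIP2, a partner of folliculin, fell by 0.89 on day 1, and RRAGC, a Rag GTPase, fell by 0.51 on day 10 (edgeR adjusted p = 2.36e-07). Of 13 genes of insulin and growth factor input, 2 were higher and 7 lower on day 1 (15.4% and 53.8%). INSR, the insulin receptor, went from 73.2 ± 5.2 to 31.2 ± 2.96 CPM (−1.23). On day 10 this group had 0 higher and 2 lower (0% and 15.4%), AKT2 among them (−0.24, edgeR adjusted p = 0.0366). The 7 genes of energy sensing had 2 higher and 2 lower on day 1 (28.6% each), near the shares of all entries. Here PRKAG2, a regulatory subunit of AMPK, rose by 1.12, and PRKAB1, another subunit, fell by 0.85 on day 10 (edgeR adjusted p = 8.17e-08).

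Of 22 genes of the outputs of the pathway, 7 were higher and 11 lower on day 1 (31.8% and 50%, beside 25.4% and 27.3% of all entries), and 6 and 3 on day 10 (27.3% and 13.6%, beside 16.1% and 15.8%). SGK1, a kinase activated by mTORC2, had the largest change among the genes of the group past the threshold on both days, from 56.8 ± 9.05 CPM to 7.75 ± 2.52 on day 1 (−2.88) and 17.0 ± 4.66 on day 10 (−1.74, edgeR adjusted p = 4.13e-11). EIF4EBP2, the paralog of EIF4EBP1, moved much less, by −0.18 on day 1 (edgeR adjusted p = 0.00611) and by 0.16, 0.16 and 0.18 on days 2, 4 and 8, each past the threshold. PRR5, an mTORC2 subunit, rose by 0.49 on day 10 (edgeR adjusted p = 0.0131).

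**Figure D5:**
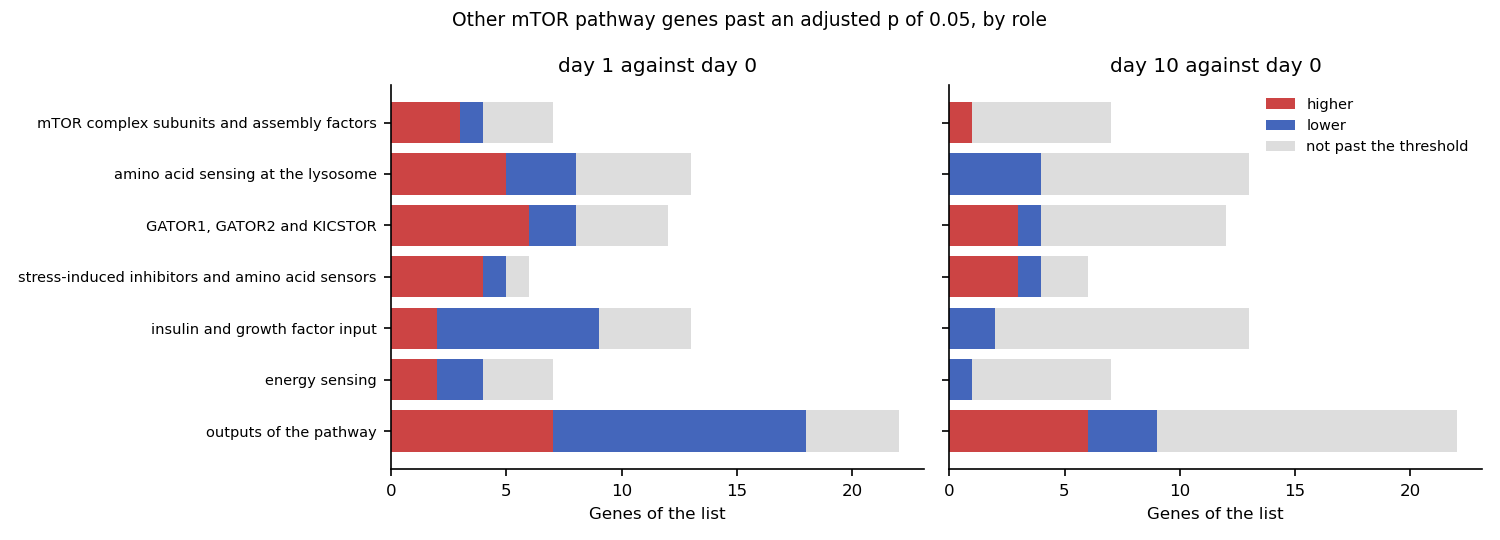
Number of further mTOR pathway genes per role group that were higher (red), lower (blue) or not past an edgeR adjusted p of 0.05 (grey) on day 1 (left) and day 10 (right) against day 0. On day 1, insulin and growth factor input has 2 higher and 7 lower genes and the GATOR group 6 higher and 2 lower. Most genes are grey on day 10.

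Beside their coding entries, the 10 members had 20 entries of other biotypes, 13 of them with a mean of at least 1 CPM. In a fit over all biotype entries, 4 of the 20 differed on day 1 (21.9% of all 65717 entries) and, in time order, 3 (18.4%), 2 (14.2%), 2 (11.5%), 3 (12.8%) and 1 (10.3%) on the later days. The retained-intron entry of SESN1 was lower on all 6 days, going from 6.23 ± 1.55 CPM on day 0 to 0.821 ± 0.34 on day 1 (−2.90, edgeR adjusted p = 1.21e-07) and 1.72 ± 1.02 on day 10 (−1.85, edgeR adjusted p = 0.000257). The retained-intron entry of TSC1 was lower on days 1 and 4 (−0.97 and −0.99, edgeR adjusted p = 0.0139 and 0.0173), on which its coding entry was higher. The retained-intron entry of TSC2 was lower on day 2 (−0.46), the processed transcript entry of MTOR was higher on day 1 (0.88), and the processed transcript entry of EIF4EBP1 and the retained-intron entry of RHEB were lower on day 8 (−1.05 and −1.44), each at an edgeR adjusted p at or below 0.05.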

How the data were processed

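RNA-seq libraries of RPMI-8226 cells, 5 per day, were grouped by the day in the labels. The authors prepared them with a directional kit, pseudoaligned the reads with Kallisto 0.44.0 to the GENCODE transcriptome of GRCh38.p12 with adjustment for GC content, and summarized the estimates with tximport with adjustment for length. The deposited values are these estimated counts, written as whole numbers, per symbol and transcript biotype, without scaling for depth. Counts of isoforms that share sequence are therefore inferred, and the split of a symbol between biotypes can move with that inference.

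Here, the 17999 of 19665 protein-coding entries with at least 1 count were tested with edgeR 4.0.16 (TMM factors, glmQLFit and glmQLFTest) in R 4.3.3, with day as the only term in a fit of all 35 libraries and Benjamini–Hochberg adjustment. Standard errors are the absolute log2 fold change divided by the square root of F. The threshold was an adjusted p of 0.05. Log2 ratios of 2 members were compared by exact two-sided permutation tests, adjusted over 6 tests. The method was tested on simulated counts. Alternatives were RLE factors, a filterByExpr filter on low counts, no factors, DESeq2 1.42.0, a replicate block, symbol totals, fits of only the 2 days compared, a fold cutoff of 2, medians and 0.5 counts added for ratios, and leaving out each library. Named genes were all members, SESN2, DDIT4, MLST8, AKT1S1 and EIF4EBP2, the largest change per role group among the genes past the threshold on days 1 and 10, the 3 transcripts most like each of the 3 members of widest range, and other biotype entries of at least 1 CPM. NPRL2 and NPRL3 were named as the other GATOR1 genes beside DEPDC5. Of 81 further pathway symbols, 80 were matched and tested, and TTI2 was not analysed here. Members, lists and tests were chosen with earlier results of these data known. Positions came from GENCODE release 44 and sequences from RefSeq. Within a day, pairs of libraries differed by 2.52 to 9.64 in chi-square per degree of freedom, so none was a copy of another.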

Additional observations from a re-analysis of the deposited data

Results flagged for a closer look

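Values of the 10 members and of the 3 log2 ratios were examined within each day for a library far from the other 4 (the gap to its nearest neighbour above 0.71 of the whole range, Dixon's criterion). Of 91 groups 5 had such a library, and chance gives about 1 in 20. RPTOR was low in replicate 1 of day 2, at 15.6 CPM against 35.4 to 41.2 in the others. DEPTOR was high in replicate 5 of day 6, at 199 CPM against 169 to 175. TSC1 was low in replicate 5 of day 8, at 20.3 CPM against 38.6 to 42.8. RICTOR was low in replicate 2 of day 10, at 90.9 CPM against 109.8 to 117. EIF4EBP1 was low in replicate 3 of day 10, at 62.3 CPM against 73.6 to 78.0. The 5 libraries were all different.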

How the results depend on the processing

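Most results kept their direction and their side of the threshold. The TSC1 coding entry reversed when all biotypes of the symbol were summed, to −0.25, −0.47, −0.27, −0.046 and −0.096 on days 1, 2, 4, 6 and 8 against day 0, and to 0.22 for day 6 against day 4 and 0.019 for day 10 against day 8. With the same totals the TSC1 to TSC2 ratio changed by −0.48 on day 1 and −0.24 on day 10, the SESN1 to SESN3 ratio by −1.35 on day 10, and 5 members differed between days 4 and 6. With medians the RPTOR to RICTOR ratio changed by 1.60 on day 1, short of the threshold, and by −0.016 on day 10. The test on medians could hardly pass after adjustment, so the missed threshold on day 1 is not read as a weaker change. The lower q of the SESN1 to SESN3 ratio goes with the TSC1 to TSC2 tests passing in the same adjustment. The cause of the other differences was not tested.

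With a fold change above 2 added, the members differing from day 0 numbered 2, 1, 1, 0, 1 and 0 on days 1 to 10, and the 80 further pathway genes 15, 7, 5, 7, 5 and 5, beside 20.4%, 15.3%, 9.41%, 6.71%, 8.18% and 5.93% of all entries. Without scaling factors 3 members differed on day 6, and the median of all transcripts with enough counts moved by 0.12, 0.13 and 0.11 on days 1, 2 and 4. Fitting only days 6 and 8 gave 1 member between them. Of the other biotype entries, 2 differed on day 10 with a filter on low counts and 2 with the replicate block. Deviations of libraries from the mean of their own day were correlated between day 0 and each later day. For same-numbered libraries the correlations lay between −0.07 and 0.07 in 30 pairs, and in 9 of 30 the best match had the same number. Weak correlations cannot exclude that the numbers follow the same subculture, so whether the libraries are paired was left undecided. The block left 9 members differing on day 1 and 6 on day 10, where it added TSC2 (0.32).

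With each library left out in turn, the members differing from day 0 numbered 2 to 6 on day 4, those between days 4 and 6 numbered 1 to 3, and those between days 6 and 8 numbered 0 to 2. The RPTOR to RICTOR change on day 10 lay between −0.080 and 0.17, the change of TSC2 from day 1 to 2 between −0.13 and 0.0105, and that of TSC1 from day 4 to 6 between −0.37 and 0.014. SESN3 had at most 20 counts per library, and the part of depth in its missing calls was not tested.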
